A study of Homo sapiens with 4 samples.

Results

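The genes described here are those of the AP-1 transcription factors and of their best known immediate early companions, 10 of the 16813 genes with a count in at least 1 library. They were set by name and comprise the FOS family (*FOS*, *FOSB*, *FOSL1*, *FOSL2*), the JUN family (*JUN*, *JUNB*, *JUND*) and *EGR1*, *IER2* and *IER3*. RNA was sequenced from PC9 cells, a human lung adenocarcinoma line with a mutant *EGFR*, and from PC9OR cells, a derivative of PC9 that is resistant to the EGFR inhibitor osimertinib, with 2 biological replicates of each line. Both lines are labelled wild type in genotype and were grown in the same serum-containing medium, and the labels give neither a drug in the medium at harvest nor a time since the last feeding. Only 1 resistant line was sequenced, so that drug resistance and other ways in which the cultures differ cannot be told apart.

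AP-1 is a dimer of basic leucine zipper proteins in which a FOS protein pairs with a JUN protein, or JUN proteins pair with each other, and it binds the TRE, a short palindrome in promoters and enhancers. Immediate early genes are transcribed within minutes of a growth signal without new protein synthesis, mostly because ERK signaling below receptors such as EGFR activates SRF and its ELK partners at the promoters, and their mRNAs are short-lived. FOSL1 protein is stabilized by ERK, and AP-1 is a well-known effector of EGFR signaling in epithelial tumors.

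All 10 genes were listed in all 4 libraries, which held between 23201307 and 32203998 expected counts (an estimated number of reads per gene that need not be whole), and all 10 passed the filter on low counts. A count of 3 in a library, taken as the floor, corresponded to between 0.0932 and 0.129 CPM (the count scaled to library size), far below every value of these genes, and it covers counting error only. The 6 epithelial markers (*EPCAM*, *CDH1* and 4 keratins) were all above 20 FPKM in every library, where FPKM is the count per transcript length and library size, while the summed level of 5 fibroblast markers was at most 0.25 FPKM. The summed level of the epithelial markers was 2576 and 2987 FPKM in PC9 and 5720 and 5511 FPKM in PC9OR cells. The keratins carried this sum, while *CDH1* was lower in PC9OR cells (log2 fold change -1.46, adjusted p = 0.00814) and *EPCAM* had a log2 fold change of -0.01. Of 6 blood and vessel markers, *CDH5* was the one above 1 FPKM, with 6.08 and 4.10 in the PC9 libraries and 0.86 and 0.80 in the PC9OR libraries, *CD3E* was at 0, and the part of these marker differences in the results below was not tested. In bulk RNA, fewer cells with a transcript and less of it per cell cannot be told apart.

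The PC9 replicates differed more from each other than the PC9OR replicates (biological coefficient of variation 0.241 against 0.104). A fit without a PC9OR library takes the spread between replicates from the PC9 pair alone, and one without a PC9 library from the PC9OR pair alone. A call lost or gained in such a fit therefore cannot be laid to the omitted library by itself. Over the 13148 genes tested, genes not being independent of each other, transcript length had a rank correlation of -0.38 with the log2 difference of PC9 replicate 2 from replicate 1. For the PC9OR replicates the same correlation was -0.0064, and for PC9OR against PC9 cells it was -0.34. Some fold changes and list medians are therefore also given with an offset that removes a smooth trend on transcript length from each library.

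The start regions of the immediate early genes are shown because their response to growth signals is partly read there. RefSeq promoters (build GRCh38.p14, from 250 bases before to 50 after the transcription start) were at hand for 8 of the 10 genes, all except *FOSL1* and *IER3*. The letters TGACG, the core of the CRE bound by CREB, ATF and some AP-1 dimers, were searched on both strands and stood in 8 of the 8, against 24.6% of all 35116 promoters of the same length. That background was not matched to the 8 promoters for base composition, so the difference is not a test of enrichment. The TGACG site nearest to the start is printed in capitals below, read 5′ to 3′ on the strand of the gene (CGTCA is the same site on the other strand), and in *EGR1* the capitals also mark a pair of CArG boxes, the binding sites of SRF.
FOS: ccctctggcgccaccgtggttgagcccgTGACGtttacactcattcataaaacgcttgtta
FOSB: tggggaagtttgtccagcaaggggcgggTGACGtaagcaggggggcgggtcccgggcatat
FOSL2: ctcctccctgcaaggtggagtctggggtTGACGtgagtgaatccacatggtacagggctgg
JUN: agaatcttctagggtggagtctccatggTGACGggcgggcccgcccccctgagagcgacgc
JUNB: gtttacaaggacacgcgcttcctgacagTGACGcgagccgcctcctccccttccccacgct
JUND: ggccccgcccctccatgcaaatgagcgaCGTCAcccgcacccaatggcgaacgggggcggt
EGR1: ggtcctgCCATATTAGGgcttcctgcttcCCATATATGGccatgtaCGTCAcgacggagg
IER2: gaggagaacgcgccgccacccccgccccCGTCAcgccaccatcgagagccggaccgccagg

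The windows lie at chr14:75278736-75278796 (plus strand) for *FOS*, chr19:45467908-45467968 (plus) for *FOSB*, chr2:28392764-28392824 (plus) for *FOSL2*, chr1:58784138-58784198 (minus) for *JUN*, chr19:12791321-12791381 (plus) for *JUNB*, chr19:18281676-18281736 (minus) for *JUND*, chr5:138465367-138465426 (plus) for *EGR1* and chr19:13150243-13150303 (plus) for *IER2*. The TGACG site starts 64 bases before the transcription start in *FOS*, 60 in *FOSB* and 66 in *FOSL2* and *EGR1*, and farther upstream in the other genes, from 86 in *JUND* to 140 in *IER2*. The CArG box was found in 1 of the 8 promoters, that of *EGR1*, and in 1.29% of all promoters. Only exact matches from 250 bases before to 50 after the start were sought. A site farther upstream or with a mismatch would be missed. The full CRE, TGACGTCA, which contains TGACG, stood in *JUND* alone among the 8 and in 1.85% of all promoters. The TRE, TGANTCA, stood in *FOSL2* alone, starting 5 bases after the start site, and in 7.71% of all promoters. The EGR site GCGNGGGCG stood in *EGR1* alone among the 8 and in 9.43% of all promoters. These matches describe the letters of the reference and not binding in these cells.

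With an adjusted p under 0.05, *FOSL1* and *FOSL2* fell in PC9OR cells, 2 of the 10 genes, and 1 rose, *JUNB*, all by more than 2-fold. Over all 13148 genes tested, 20.8% were lower and 15.6% higher at the same threshold, and 36.4% passed it in either direction, which is above the 3 of 10 found here. With the added limit of more than 2-fold, 6.13% of all genes were higher, 11.6% lower and 17.7% either. At the stricter threshold of more than 2-fold and an adjusted p under 0.001, 0 of the 10 genes passed, as did 0 of all genes in edgeR's quasi-likelihood test, while at an unadjusted p under 0.05 and the same fold limit 967 of all genes rose and 1718 fell. DESeq2's Wald test called 2 of the 10 genes higher and 4 lower at an adjusted p under 0.05. The lines did not overlap for 8 of the 10 genes, with PC9OR above PC9 for 3 (39.6% of all genes tested) and below for 5 (38.2%), beside 77.8% of all genes in either direction. The median log2 fold change of the 10 genes was -0.10, against 0.01 for all genes tested, and -0.23 with the offset on transcript length.

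**Figure D1:**
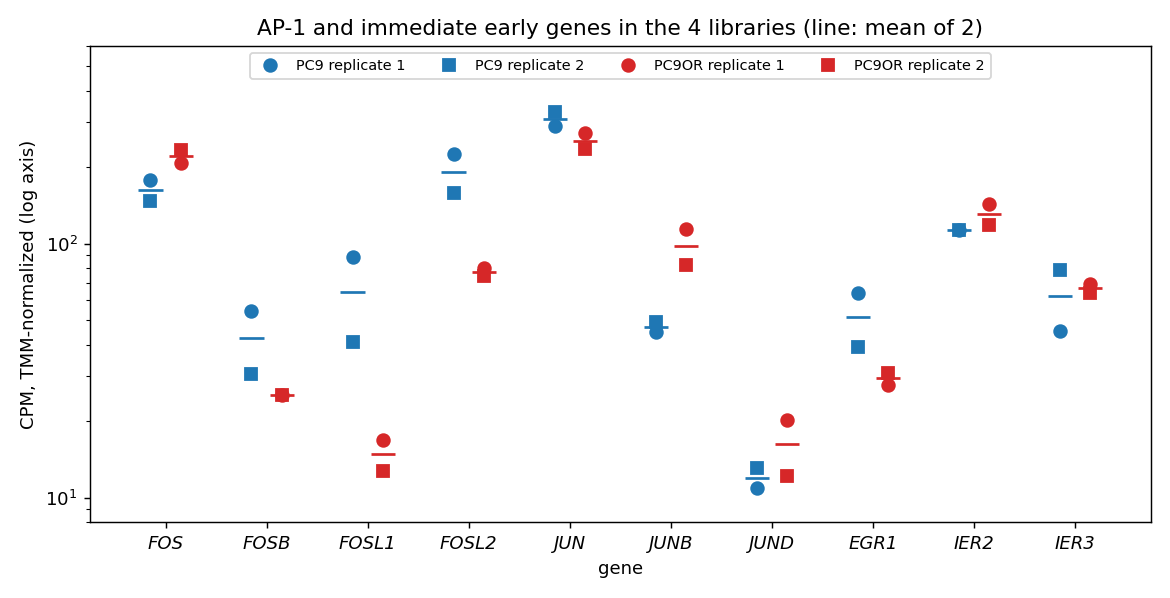
Normalized counts (CPM, log axis) of each of the 10 genes in every library, with PC9 in blue, PC9OR in red, circles for replicate 1, squares for replicate 2 and a line at the mean of the 2 replicates. The red points of *FOSL1* and *FOSL2* lie well below the blue ones, those of *JUNB* lie above them, and the lines overlap for *JUND* and *IER3*.

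*FOSL1*, which encodes FRA1 and is the FOS family member most often tied to sustained ERK activity and invasion, showed the largest change of the 10. Its GRCh37 position is chromosome 11, 65659520 to 65668044, minus strand, with 4 exons in its canonical transcript. Its level was 88.4 and 41.0 CPM in PC9 replicates 1 and 2 and 16.9 and 12.7 CPM in PC9OR replicates 1 and 2. Both PC9OR libraries were below both PC9 libraries, although the PC9 libraries themselves differed by more than the PC9OR libraries did. The mean fell from 64.7 ± 33.5 CPM (SD, n = 2) in PC9 to 14.8 ± 2.97 CPM (SD, n = 2) in PC9OR cells, a log2 fold change of -2.12 (standard error 0.40, adjusted p = 0.0179), or 4.36-fold lower. The fits that each omitted 1 library gave log2 values between -2.59 and -1.48, and with the offset on transcript length it was -2.37. Of its 50-base words, 2.94% also occur in the pseudogene *FOSL1P1*.

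*FOSL2*, the gene of FRA2, changed in the same direction and was the steadier of the pair between replicates. Its GRCh37 position is chromosome 2, 28615315 to 28640184, plus strand. The PC9 libraries had 226 and 158 CPM and the PC9OR libraries 79.8 and 74.4 CPM, without overlap. Its log2 fold change of -1.32 had a standard error of 0.20 (adjusted p = 0.0111) and corresponds to 2.49-fold lower, and with the offset on transcript length it was -1.18. *FOSL2-AS1*, a non-coding RNA that overlaps it on the opposite strand, had 2.18 and 0.381 CPM in PC9 and 0.0624 and 0.0938 CPM in PC9OR cells. None of the 50-base words of *FOSL2* occurs in another gene.

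In contrast, *FOS*, the founding member of the family and the one induced fastest and lost soonest after a growth signal, was not lower in PC9OR cells. Its GRCh37 position is chromosome 14, 75745529 to 75748933, plus strand, and none of its 50-base words occurs in another gene. Its level was 177 and 147 CPM in the PC9 libraries and 207 and 233 CPM in the PC9OR libraries, so that the lines did not overlap and PC9OR was the higher. The log2 fold change was 0.44 (standard error 0.14, 95% confidence interval 0.08 to 0.80) and 0.32 with the offset on transcript length. Without the offset its adjusted p of 0.0607 did not pass the threshold. It passed with DESeq2's Wald test, at an adjusted p of 0.0326, without PC9 replicate 1, at 0.0110, and without PC9 replicate 2, at 0.0485, and over all alternatives the adjusted p ran from 0.0110 to 0.420.

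*FOSB*, whose splice variants include the truncated ΔFOSB, had 54.3 and 30.7 CPM in the PC9 libraries and 25.4 in each of the PC9OR libraries. PC9 replicate 1 stood apart, and replicate 2 was only slightly above the PC9OR libraries. The log2 fold change of -0.74 had an adjusted p of 0.0931 and ran from -1.11 without PC9 replicate 2, where it passed at an adjusted p of 0.00149, to -0.28 without PC9 replicate 1. It also passed with DESeq2's Wald test, at 0.0343, and the adjusted p lay between 0.00149 and 0.203 under the alternatives. Its length weighted by isoform use was 3756 and 3753 bases in the PC9 libraries and 3767 and 3766 bases in the PC9OR libraries. Of its 50-base words, 0.242% also occur in other genes, which do not include the overlapping *ERCC1*. The gene overlaps *ERCC1*, which lies on the opposite strand on chromosome 19 and had a log2 fold change of 0.84 (adjusted p = 0.00961), with an adjusted p of 0.0629 without PC9OR replicate 1 and 0.0641 without PC9OR replicate 2.

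Among the JUN family, *JUNB*, whose protein is a weaker activator than JUN and can restrain it, was the gene that rose. It consists of 1 exon on the plus strand of chromosome 19, at 12902300 to 12904129 in GRCh37. Its level was 44.8 and 48.9 CPM in the PC9 libraries and 114 and 82.4 CPM in the PC9OR libraries, with PC9OR replicate 1 the highest and no overlap. This was a 2.09-fold rise, or a log2 value of 1.07 with a standard error of 0.19 (adjusted p = 0.0150), and 0.88 with the offset on transcript length. Without PC9OR replicate 1 it was 0.82, less than 2-fold, and *JUNB* was not called in that fit. There the spread between replicates came from the PC9 pair alone, so that the lost call cannot be laid to the omitted library by itself. Of its 50-base words, 11.8% occur in *HOOK2* on the opposite strand, and *HOOK2* had a log2 fold change of 0.41 (adjusted p = 0.0569, and 0.0202 without PC9 replicate 1).

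*JUN*, the strongest activator of its family, had 291 and 330 CPM in PC9 and 273 and 235 CPM in PC9OR cells. The PC9OR libraries were below the PC9 libraries by a small margin. Its log2 fold change of -0.29 had a 95% confidence interval from -0.63 to 0.05 and an adjusted p of 0.140, so that a decrease by more than 2-fold lay outside the interval, and without PC9 replicate 1 it was -0.38 with an adjusted p of 0.0480. *JUND*, which is usually expressed without stimulation and is often high in resting cells, had 10.9 and 13.04 CPM in PC9 and 20.3 and 12.2 CPM in PC9OR cells. PC9OR replicate 1 stood apart and the lines overlapped (log2 fold change 0.44, 95% confidence interval -0.30 to 1.17, adjusted p = 0.269).

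*EGR1*, a zinc finger factor induced through the CArG boxes printed above, had 63.7 and 39.2 CPM in the PC9 libraries and 27.8 and 31.0 CPM in the PC9OR libraries. Both PC9OR libraries were below both PC9 libraries, and the gap to PC9 replicate 2 was small. Its log2 fold change of -0.80 (standard error 0.25) had an adjusted p of 0.0578 that missed the threshold. Over its alternatives the log2 fold change ran from -1.13 to -0.42 and the adjusted p from 0.00199 to 0.178. It passed, among others, with DESeq2's Wald test at 0.0105, with the offset on transcript length at 0.0488 and with at least 10 counts in every library at 0.0496. It also passed without PC9 replicate 1, at 0.0359, and without PC9 replicate 2, at 0.00199.

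*IER2*, a nuclear protein encoded by an immediate early gene, differed least between the PC9 replicates, at 113 CPM in each. The PC9OR libraries had 143 and 118 CPM, and the log2 fold change was 0.21 (95% confidence interval -0.13 to 0.54, adjusted p = 0.253). *IER3*, a regulator of apoptosis and of ERK signaling, had 45.3 and 78.9 CPM in PC9 and 69.5 and 63.8 CPM in PC9OR cells, so that the PC9OR libraries lay between the PC9 libraries. Its log2 fold change of 0.10 (adjusted p = 0.791) turned to -0.23 with the offset on transcript length and to -0.25 without PC9 replicate 1, and it was 0.54 with an adjusted p of 0.0118 without PC9 replicate 2. A share of 47.5% of the 50-base words of *IER2* and 31.7% of those of *IER3* occurs in non-coding genes on the opposite strand. The libraries were prepared with a stranded kit, and whether the counting used the strand is not given in the sources used here.

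**Figure D2:**
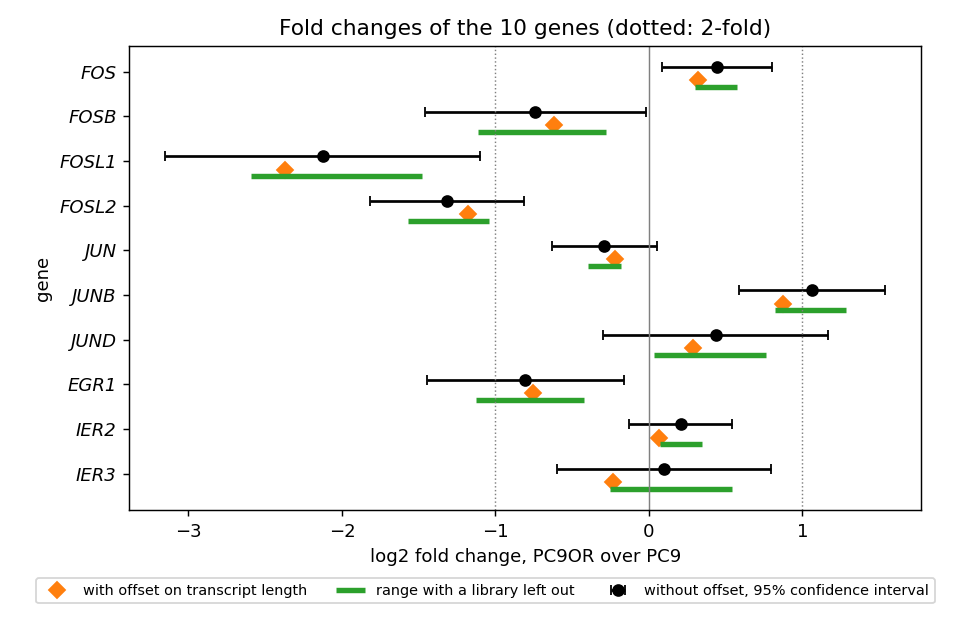
The log2 fold change (PC9OR over PC9) of each gene with its 95% confidence interval in black, the value with an offset on transcript length in orange, and the range over the 4 fits without 1 library in green. The intervals of *FOS*, *FOSB*, *FOSL1*, *FOSL2*, *JUNB* and *EGR1* lie on one side of 0, and the green bar of *IER3* crosses 0.

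The replicates of PC9 differed by gene. From replicate 1 to replicate 2, the CPM ratio ran from 0.464 for *FOSL1*, 0.565 for *FOSB* and 0.616 for *EGR1* to 1.74 for *IER3*, and between the PC9OR replicates it ran from 0.602 for *JUND* to 1.12 for *FOS*. *JUND* was close between the PC9 replicates, at a ratio of 1.19, and apart between the PC9OR replicates.

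Levels were compared between genes in FPKM, which is per length. In PC9 cells *JUN* ranked first of the 10 in both libraries, with 67.6 ± 4.90 FPKM (SD, n = 2), and *FOS* ranked second, with 55.7 ± 8.16 FPKM (SD, n = 2). In PC9OR cells the order was turned, with *FOS* first at 74.1 ± 5.06 FPKM (SD, n = 2) and *JUN* second at 54.1 ± 6.44 FPKM (SD, n = 2), and the libraries of these genes did not overlap within either line. *JUN* and *IER2* were neighbours in PC9OR cells, and there *IER2* (51.3 and 41.6 FPKM) overlapped with *JUN* (58.7 and 49.6 FPKM). *FOSL1* moved from position 5 and 7 in the PC9 libraries to position 8 in both PC9OR libraries. At the low end, *JUND* had 4.20 and 4.91 FPKM in PC9 and 7.62 and 4.49 FPKM in PC9OR cells, and *FOSB* 4.8 and 4.69 FPKM in PC9OR cells, so that the order of these neighbours was not resolved in PC9OR cells.

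The make-up of the FOS family differed between the lines. The share of *FOS* in the summed FPKM of the 4 FOS genes was 40.5% and 49.1% in the PC9 libraries and 72.8% and 77.1% in the PC9OR libraries. *FOSL1* held 25.5% and 17.5% in PC9 and 7.58% and 5.39% in PC9OR cells. *FOSL2* held 27.1% and 27.7% in PC9 and 14.6% and 12.9% in PC9OR cells. The lines did not overlap for any of these shares, nor for the small one of *FOSB*, which was 6.93% and 5.72% in PC9 and 4.96% and 4.66% in PC9OR cells. Shares of a family add up to a whole, so that a lower share of some genes means a higher share of others. These separations are therefore not independent results, and in CPM the lines did not overlap for 77.8% of all genes tested. With 2 libraries per line, an exact permutation test (two-sided) cannot give a p below 0.33, so the shares are given as values. The FPKM ratio of *FOS* to *FOSL1* was 1.59 and 2.81 in PC9 and 9.61 and 14.3 in PC9OR cells. The summed level of the family was 152 and 102 FPKM in PC9 and 96.8 and 101 FPKM in PC9OR cells, with PC9 replicate 2 close to the PC9OR libraries.

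In the JUN family *JUN* held 73.7% and 74.0% of the summed FPKM in PC9 and 52.0% and 56.9% in PC9OR cells. *JUNB* held 21.5% and 20.9% in PC9 and 41.3% and 37.98% in PC9OR cells, so that the lines were well apart for both. As parts of a whole the shares of *JUN* and *JUNB* are not independent, and *JUN* itself was not called (log2 fold change -0.29). *JUND* held between 4.83% and 6.75% in all 4 libraries. The FPKM ratio of *JUN* to *JUNB* was 3.43 and 3.55 in PC9 and 1.26 and 1.497 in PC9OR cells. The summed level of the JUN family overlapped between the lines, at 87.0 and 96.0 FPKM in PC9 and 113 and 87.1 FPKM in PC9OR cells.

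**Figure D3:**
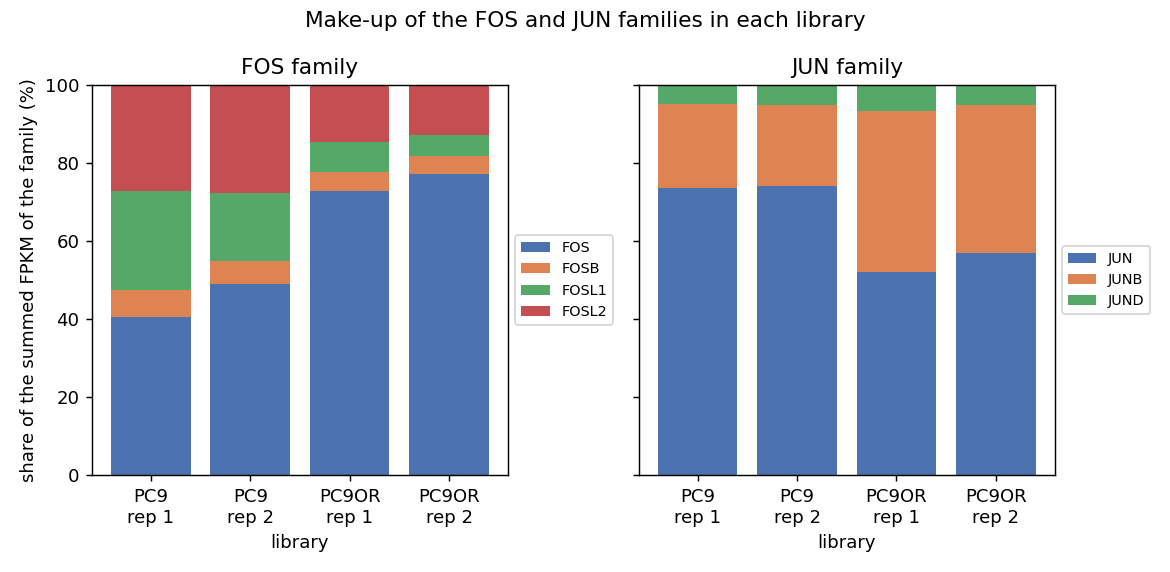
Share (%) of each gene in the summed FPKM of its family in each of the 4 libraries, with the FOS family on the left and the JUN family on the right. The *FOS* share is above 70% in both PC9OR libraries and below 50% in both PC9 libraries, and the *JUNB* share is near 40% in PC9OR and near 21% in PC9 cells.

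Next, written lists of other genes of the pathway were examined in the same fit, 83 tested genes in all. At an adjusted p under 0.05, 16 of them rose and 32 fell in PC9OR cells, beside 15.6% higher and 20.8% lower over all genes tested. Of the 6 tested genes for SRF and its partners, 4 were lower and 0 higher, with a median log2 fold change of -1.26, against 0.01 for all genes. With the offset on transcript length, 3 were lower and the median was -0.90. *MRTFB* and *MRTFA* encode coactivators that carry actin signals to SRF. *MRTFB* had 119 and 78.8 CPM in PC9 and 20.9 and 24.9 CPM in PC9OR cells (log2 fold change -2.11, adjusted p = 0.00699), and *MRTFA* 42.8 and 24.8 against 12.7 and 11.3 CPM (-1.49, adjusted p = 0.0188). With the offset on transcript length these log2 fold changes were -1.50 and -1.29. *ELK3*, a ternary complex factor with repressor activity, had 122 and 105 CPM in PC9 and 30.3 and 32.4 CPM in PC9OR cells (-1.86, adjusted p = 0.00399). *ELK4* had a log2 fold change of -1.03 (adjusted p = 0.0137) that shrank to -0.27 (adjusted p = 0.0803) with the offset on transcript length, and without PC9OR replicate 1 its adjusted p was 0.0733. *SRF* itself had a log2 fold change of -0.37 (adjusted p = 0.0705, and 0.0479 and 0.00771 without PC9 replicate 1 or 2) and *ELK1* of -0.50 (adjusted p = 0.0742).

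The kinases that activate AP-1 and SRF showed both directions. Of the 15 tested, 2 were higher and 5 lower, with a median log2 fold change of -0.15. Of all genes tested, 15.6% were higher and 20.8% lower. *MAPK3*, the gene of ERK1, rose by 0.62 on the log2 scale (adjusted p = 0.0364), but its adjusted p was 0.265 without PC9OR replicate 1, 0.122 without PC9OR replicate 2 and 0.0937 with the offset on transcript length. *RPS6KA2*, the gene of the ERK-activated kinase RSK3, had 81.9 and 58.0 CPM in PC9 and 3.47 and 2.34 CPM in PC9OR cells (-4.59, adjusted p = 0.00351). *RPS6KA3*, the gene of RSK2, had 326 and 321 CPM in PC9 and 143 and 152 CPM in PC9OR cells (-1.14, adjusted p = 0.00530). With the offset on transcript length the log2 fold change of *RPS6KA3* was -0.63. *MAPK7*, the gene of ERK5, had a log2 fold change of -1.31 (adjusted p = 0.0380), with an adjusted p of 0.0865 without PC9OR replicate 1 and 0.0795 without PC9OR replicate 2. *MAPK8*, the gene of the JUN kinase JNK1, fell by 0.54 on the log2 scale (adjusted p = 0.0228), and *MAP2K1*, the gene of MEK1, by 0.70 (adjusted p = 0.0114). Without PC9OR replicate 1 or 2, *MAPK8* had an adjusted p of 0.224 or 0.259 and *MAP2K1* of 0.139 or 0.143, and with the offset on transcript length *MAPK8* shrank to -0.20 (adjusted p = 0.269).

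Of 10 tested basic leucine zipper partners, 1 was higher and 3 were lower. These calls made up 40% of the tested partners, near the 36.4% of all genes tested. *JDP2*, a JUN dimer partner that represses AP-1, had 6.95 and 8.29 CPM in PC9 and 32.3 and 31.6 CPM in PC9OR cells (log2 fold change 2.07, adjusted p = 0.00447). *ATF7*, an ATF2 relative, had 49.4 and 22.8 CPM in PC9 and 7.55 and 8.97 CPM in PC9OR cells (-2.12, adjusted p = 0.0175), and its listed length was 4939 and 3611 bases in PC9 and 2296 and 1829 bases in PC9OR cells. In FPKM, which divides by that length, it had 7.22 and 4.51 against 2.41 and 3.57, and limma-trend gave -0.77 on log2(FPKM + 1) (adjusted p = 0.0749) and -0.94 on log2(FPKM + 0.1) (adjusted p = 0.0698). The small MAF genes *MAFK* (107 and 108 against 42.2 and 36.6 CPM) and *MAFF* (96.5 and 83.8 against 47.8 and 36.0 CPM), whose proteins lack an activation domain, fell by 1.45 and 1.11 on the log2 scale (adjusted p = 0.00498 and 0.0130). Without PC9OR replicate 2, *MAFF* had an adjusted p of 0.0721. Of 6 genes for the turnover of JUN protein, 33.3% were called, beside 36.4% of all genes tested. *ITCH*, a ubiquitin ligase of JUN, had 494 and 497 CPM in PC9 and 277 CPM in each PC9OR library (-0.84, adjusted p = 0.00780). *CUL4A*, a ligase scaffold, had 110 and 112 against 166 and 172 CPM (0.61, adjusted p = 0.0137). With the offset on transcript length *ITCH* had a log2 fold change of -0.41 and *CUL4A* of 0.72. With either PC9OR library left out, *ITCH* had an adjusted p between 0.0852 and 0.0855 and *CUL4A* between 0.147 and 0.180.

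Other immediate early genes did not share one direction either. Of 24 tested, 4 were higher and 8 lower, beside 15.6% and 20.8% of all genes tested, with a median log2 fold change of 0.01. Those with the largest increases were low. *BTG2*, an antiproliferative gene, had 2 and 1 counts in PC9 and 20 and 15 in PC9OR cells, a ratio of 9.53 with a 95% counting interval (exact Clopper-Pearson) from 3.004 to 48.4. A counting interval sums the reads of each line and leaves out the spread between cultures. *NR4A3*, an orphan nuclear receptor, had 3 and 1 counts in PC9 and 17 and 24 in PC9OR cells, a ratio of 8.37 with an interval from 3.03 to 32.2. Neither passed with DESeq2's Wald test (adjusted p = 0.0945 and 0.0918), and without a filter on low counts they had an adjusted p of 0.0548 and 0.0638. With 1 library left out, *BTG2* failed without PC9 replicate 2 (adjusted p = 0.0674), PC9OR replicate 1 (0.210) or PC9OR replicate 2 (0.135), and *NR4A3* failed without the same libraries (0.0740, 0.134 and 0.225). *NR4A1* had 1.07 and 0.208 CPM in PC9 and 4.37 and 3.94 CPM in PC9OR cells (log2 fold change 2.73, adjusted p = 0.0403), with an adjusted p of 0.0701 without PC9OR replicate 1 and 0.0525 without PC9OR replicate 2. *KLF6*, a zinc finger factor, had 101 and 75.8 CPM in PC9 and 28.6 and 25.4 CPM in PC9OR cells (-1.71, adjusted p = 0.00638). *RHOB*, a small GTPase gene, was the other that rose, with 79.3 and 97.5 CPM in PC9 and 298 and 233 CPM in PC9OR cells (1.59, adjusted p = 0.00698).

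Of 15 tested genes that are textbook targets of AP-1, 9 were lower and 3 higher in PC9OR cells. Over all genes tested, 20.8% were lower and 15.6% higher. The median log2 fold change of the targets was -0.93, and -1.30 with the offset on transcript length. *LIF* and *IL11*, cytokines of the IL-6 family, had 183 and 146 against 45.6 and 39.8 CPM (log2 fold change -1.94, adjusted p = 0.00479) and 28.9 and 35.4 against 7.93 and 9.32 CPM (-1.90, adjusted p = 0.00547). The 3 genes called higher encode matrix metalloproteinases. *MMP3* and *MMP10*, also on the list, did not pass the filter on low counts. *MMP3* had 3 and 10 counts in PC9 and 2 and 6 in PC9OR cells, and *MMP10* had 3 and 3 against 6 and 3. *MMP9* had 0.512 and 0.381 CPM in PC9 and 7.40 and 5.72 CPM in PC9OR cells (3.87, adjusted p = 0.00529). *MMP13* had 2 counts in each PC9 library and 45 and 49 in the PC9OR libraries, a ratio of 19.2 with a 95% counting interval from 7.25 to 71.9. Its log2 fold change in the fit was 4.18 (adjusted p = 0.00831). It reached only 0.37 and 0.40 FPKM in PC9OR cells and does not pass a filter of at least 10 counts in every library. *MMP1* rose by 1.48 on the log2 scale (adjusted p = 0.0311, and 0.117 without PC9OR replicate 2). These targets also answer to factors other than AP-1.

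Heat shock genes were measured beside these because immediate early genes also respond to the handling of cells. Of 8 tested, 5 were higher and 2 lower in PC9OR cells, beside 15.6% and 20.8% of all genes tested. Their median log2 fold change was 0.99, and 0.69 with the offset on transcript length. The level of *HSPA1A*, the main inducible HSP70 gene, was 382 and 380 CPM in PC9 and 1069 and 1065 CPM in PC9OR cells (1.49, adjusted p = 0.00394), and its near-identical copy *HSPA1B*, whose reads cannot be split with certainty, had 9.09 and 13.1 against 36.5 and 37.2 CPM (1.73, adjusted p = 0.00770). *HSPB1* rose by 1.46 (adjusted p = 0.00500) and *DNAJB1* by 0.53 (adjusted p = 0.0236), while *BAG3* and *HSPA8* fell by 1.41 and 0.45 (adjusted p = 0.0107 and 0.0401). With the offset on transcript length *HSPB1* had a log2 fold change of 0.93, less than 2-fold. Without PC9OR replicate 1 or 2, *DNAJB1* had an adjusted p of 0.262 or 0.188 and *HSPA8* of 0.243 or 0.256, and *HSPA8* also failed with limma-trend on log2(FPKM + 1), at 0.236, and without a filter or with at least 10 counts in every library, at 0.051 in each. *HSPA6* had 6 and 2 counts in PC9 and 42 and 40 in PC9OR cells, a ratio of 8.37 with a 95% counting interval from 4.05 to 20.04, and with either PC9OR library left out its adjusted p was 0.107 or 0.0946. The summed level of the 8 genes was 1545 and 1689 FPKM in PC9 and 1516 and 1475 FPKM in PC9OR cells, most of it *HSPA8*. Without *HSPA8*, a sum added after the values were seen, the other 7 genes had 296 and 265 FPKM in PC9 and 545 and 527 FPKM in PC9OR cells. The part of handling in the values of the AP-1 genes was not tested.

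**Figure D4:**
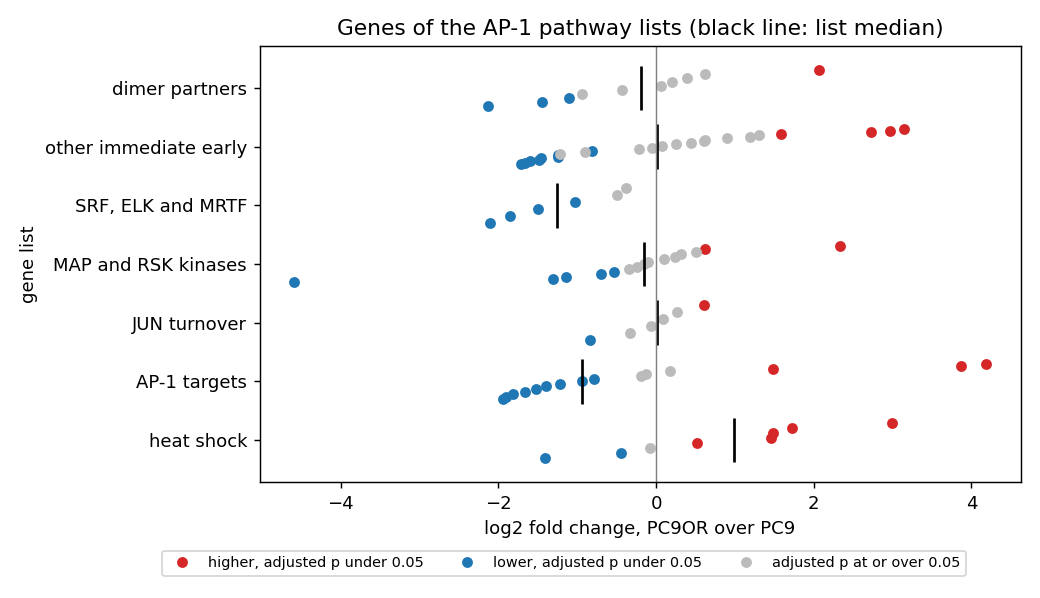
The log2 fold change (PC9OR over PC9) of each tested gene of the 7 written lists, with red for genes higher and blue for genes lower at an adjusted p under 0.05, grey for the others and a black line at the list median. The SRF list lies wholly below 0, the AP-1 targets lie mostly below 0 with 3 metalloproteinase genes far above it, and the heat shock genes lie mostly above 0.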

How the data were processed

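Per the labels, libraries were made from total RNA with the TruSeq Stranded kit, and the study's methods name SOAP for filtering reads. The submitters' processing notes name Bowtie2 2.2.5, RSEM 1.2.12 and GRCh37, without their roles. The deposited files give, per gene and library, an expected count (estimated and not normalized, whole for between 53.5% and 55.5% of the genes listed), an FPKM value and a transcript length. Genes absent from a file were given 0, and Entrez identifiers were matched to RefSeq symbols (99.66%).

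Expected counts were rounded and fitted for all genes by edgeR 4.0.16 under R 4.3.3 (filterByExpr, TMM, glmQLFit, glmQLFTest), without a replicate block, and Benjamini-Hochberg adjusted p-values over the 13148 genes kept. A gene was called at an adjusted p under 0.05. Standard errors were taken from the log2 fold change and its F statistic. The study names DEGseq, which was not at hand. FPKM was used for shares and for limma-trend (limma 3.58.1), and DESeq2 1.42.0 and lowess offsets on length (span 0.3) were alternatives. The edgeR and DESeq2 fits were run on simulated counts with equal spread in both lines and no trend on transcript length. These libraries differ in both respects, so that the run does not measure error rates here. Positions are from GENCODE on GRCh37 and promoters from RefSeq on GRCh38.p14.

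The genes, lists and alternatives were chosen with earlier results of these data known. All 10 genes are named. Of each pathway list, up to 4 called genes with the largest change are named, except for 1 that is not reported here, and *SRF*, *ELK1*, *MAPK3*, *MAPK8*, *MAP2K1*, *RHOB*, *MMP1*, *DNAJB1*, *BAG3*, *HSPA8*, *EPCAM*, *CDH1*, *CDH5* and the overlapping genes were added after their values were seen.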

Additional observations from a re-analysis of the deposited data

How the results depend on the processing

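At more than 2-fold and an adjusted p under 0.001, every count of calls fell to 0, since no gene passed. For the 10 AP-1 and immediate early genes, the 1 higher and 2 lower became 2 and 4 with DESeq2's Wald test. The replicate numbers were not taken to pair the cultures, since no source says so and the deviations of same-numbered libraries had a correlation of 0.055. The replicate block gave 4 lower, as did the block with the offset on length. Leaving out a library gave 0 to 3 higher and 2 to 4 lower. *IER3* turned to -0.23 with the offset on length, -0.21 with that offset and the replicate block, and ran from -0.25 without PC9 replicate 1 to 0.54 without PC9 replicate 2. Over all pathway lists, leaving out a library gave 8 to 20 genes higher and 22 to 38 lower. Per list, it gave 1 to 3 dimer partners higher, 1 to 5 immediate early genes higher, 1 to 3 kinases higher and 2 to 6 lower, 0 to 1 turnover genes in each direction, and 3 to 5 heat shock genes higher and 1 to 3 lower. DESeq2's Wald test and at least 10 counts in every library each gave 2 dimer partners higher. DESeq2's Wald test and no filter each gave 2 immediate early genes higher. The kinases had 4 higher with the offset on length and the block. Heat shock genes had 1 lower with either FPKM fit, without a filter and with at least 10 counts in every library. More than 2-fold at an adjusted p under 0.05 left 1 kinase higher and 3 lower, 0 turnover genes and 1 heat shock gene lower. Counts per length in place of FPKM gave PC9 shares of 28.1% for *FOSL2*, 74.5% for *JUN* and 20.6% for *JUNB*. Apart from the limits of the strict threshold and of smaller groups, which follow from their construction, the cause was not tested.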
